A study of Mus musculus with 34 samples.

Results

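The comparison described here is the response to the PPARγ ligand Rosiglitazone (Rosi) in preadipocytes that carried both ectopic PPARγ and the K36M mutant of histone H3.3 (K36M cells). It rests on 2 of the 34 samples of the series, 1 RNA-Seq library with DMSO and 1 with Rosi, and the question was which ligand responses these cells kept. Each gene was represented by its RefSeq transcript with the highest mean RPKM (a read count per unit of transcript length and of sequencing depth) over the 14 RNA-Seq libraries. A gene was kept when its RPKM was at least 1 in either K36M library, which left 11870 of 23109 genes. A gene that passed through 1 library alone was higher in that library by this rule, so its direction was fixed in advance. This also applies to such genes in the counts of the gene lists below. The lowest gene inside this floor was *Lrrc8b* with 1.0009 RPKM in its higher library, and the highest outside it was *Mir147* with 0.9998 RPKM. The same filter on the 2 libraries of cells with ectopic PPARγ and WT H3.3 (WT cells) kept 11753 genes, and these libraries serve as the reference. The WT pair and the K36M pair share no library.

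All 4 libraries came from brown preadipocytes of the interscapular fat of newborn C57BL/6J pups, immortalized with SV40T and labelled as carrying floxed alleles of the glucocorticoid receptor gene (GR-flox/flox). The labels also speak of a retroviral vector or Cre for that allele without saying which these libraries received, and the paper describes the mice as WT. The cells then received retroviral WT or K36M H3.3 with a FLAG tag under puromycin selection and retroviral PPARγ under hygromycin selection, so the DMSO controls carry PPARγ too. The methods describe sub-confluent cells treated for 24 h with DMSO or 0.5 µM Rosi, whereas the labels give 24 h for Rosi and time 0 for DMSO, so a change over 24 h in culture cannot be told apart from a change due to the ligand. These are pools of 1 immortalized line with 1 library per condition. No difference has a replicate check, no test between conditions was possible, and the intervals below cover counting error only.

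PPARγ is a nuclear receptor that binds DNA together with an RXR partner and switches on genes of fat storage when a ligand such as Rosi occupies it. In preadipocytes it works in a mutual loop with C/EBPα, and together they set up the adipocyte program of lipid uptake, triglyceride synthesis, lipid droplet coating and insulin response. The K36M mutant of H3.3 inhibits enzymes that methylate lysine 36 of histone H3, and so lowers that methylation on other H3 molecules in the cell.

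Mapped reads, recovered from the RPKM values, numbered 24365867 with DMSO and 12660471 with Rosi in K36M cells and 21749427 and 16543065 in WT cells. For a transcript of 1 kb, 3 reads correspond to 0.123 and 0.237 RPKM in the K36M libraries. The 10 genes with the highest RPKM took 5.02% of the summed RPKM with DMSO and 3.73% with Rosi. How reads that match several places were counted is not given in the sources used here. *Gapdh*, a glycolytic enzyme with many near-identical pseudogenes, had 2.27 and 2.05 RPKM in K36M cells, against 327 and 90.2 for *Ldha*, so values of genes with close copies are uncertain. Shorter transcripts had higher ratios of Rosi to DMSO in K36M cells and the reverse held in WT cells. The median log2 ratio went from 0.13 for 827 genes of 500 to 1000 bases to -0.13 for 1050 genes over 6000 bases in K36M cells, and from -0.08 to 0.25 in WT cells. With the ratios centred within length classes, a setting chosen after seeing the data, the counts below of 938 genes over 2-fold higher and 1051 over 2-fold lower became 976 and 999.

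Rosi was followed by a large response in K36M cells. In total 938 genes (7.90% of 11870) were up-regulated over 2-fold and 1051 genes (8.85%) were down-regulated over 2-fold, with a median log2 ratio of -0.04 over all genes kept. Of the up-regulated genes, 248 rose over 4-fold and 69 over 16-fold, and of the down-regulated genes 178 fell over 4-fold and 38 over 16-fold. In WT cells the same threshold gave 1171 up-regulated (9.96% of 11753) and 594 down-regulated genes (5.05%). The counting interval excluded 1 for 901 of the up-regulated and 985 of the down-regulated genes in K36M cells. With 209 rows of small RNA genes left out, a setting chosen after seeing the data, 907 and 986 genes remained. Since these are bulk libraries, fewer responding cells and a smaller response per cell cannot be told apart.

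**Figure D1:**
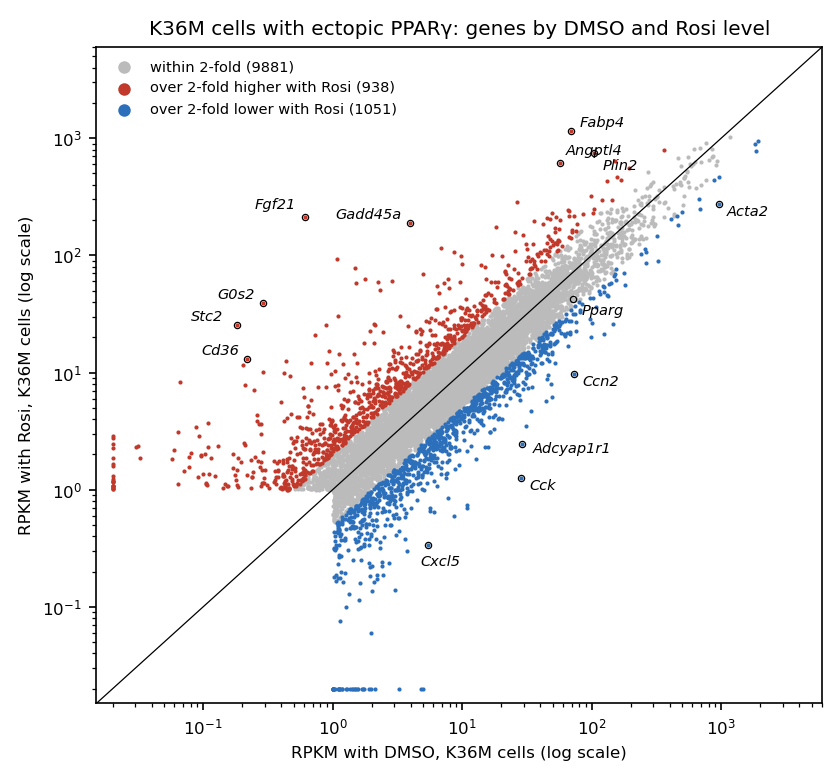
RPKM with DMSO (x axis) and with Rosi (y axis) of the 11870 genes kept in K36M cells, both on log scales, with 1 point per gene and values of 0 drawn at 0.02. Red points are the 938 genes over 2-fold higher with Rosi and blue points the 1051 over 2-fold lower. *Fgf21*, *G0s2* and *Stc2* lie farthest above the diagonal among the labelled genes, and *Cck* and *Cxcl5* farthest below.

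The WT response was kept in part past the 2-fold threshold. Of the 1171 genes up-regulated in WT cells, 413 (35.3%) were also up-regulated in K36M cells, 538 were within 2-fold, 201 were below the floor in both K36M libraries and 19 were down-regulated. Those 413 genes make up 44% of the genes up-regulated in K36M cells. Of the genes down-regulated in WT cells, 314 (52.9%) were also down-regulated in K36M cells, where they are 29.9% of the down-regulated genes. Over 11256 genes kept in both pairs the log2 ratios in WT and K36M cells had a Pearson r of 0.66 and a Spearman rho of 0.58, across genes, which are not independent.

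Genes up-regulated in WT cells more often had a smaller than a larger ratio in K36M cells. Of 963 genes up-regulated in WT cells and kept in both pairs, 835 had a higher RPKM with Rosi than with DMSO in K36M cells, with a median log2 ratio of 0.85 against 1.43 in WT cells. The K36M ratio was below the WT ratio beyond counting error for 626 of them, above it for 80 and within counting error for 257. Leaving out those up-regulated in K36M cells, 552 genes remained, of which 424 had a higher RPKM with Rosi, with medians of 0.40 in K36M and 1.27 in WT cells. These genes were chosen by their WT ratio. Of 761 genes chosen by up-regulation in K36M cells and kept in both pairs, the K36M ratio was larger beyond counting error for 349, smaller for 149 and within counting error for 263.

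Genes with a larger WT response more often passed the threshold in K36M cells, with 15 genes at 0 with DMSO in WT cells left out. The share was 27.7% of the 820 genes raised 2- to 4-fold in WT cells, 51.7% of the 209 raised 4- to 8-fold, 57.5% of the 73 raised 8- to 16-fold and 63% of the 54 raised over 16-fold. Medians were taken only over the genes of each class that were kept in both pairs. Those in K36M cells rose in the same order, from a log2 ratio of 0.65 to 1.33, 2.32 and 3.06. They lay below the WT medians of 1.28, 2.35, 3.54 and 4.60 in every class. The classes were cut by the WT ratio itself, which favours a smaller ratio in K36M cells.

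**Figure D2:**
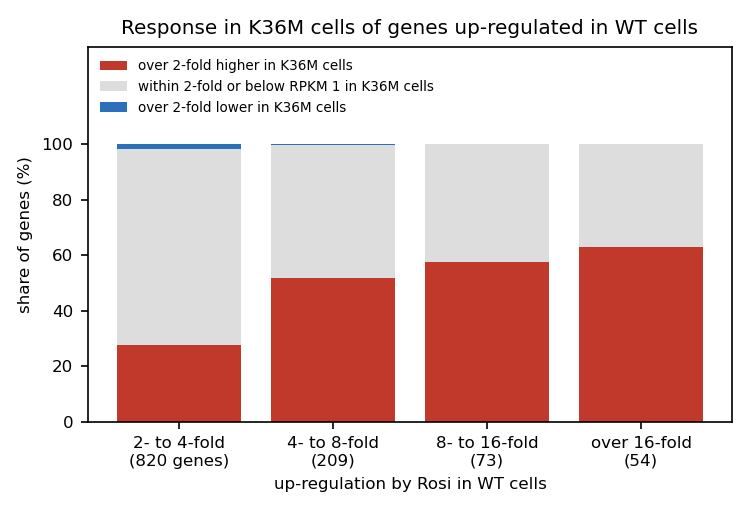
Genes up-regulated by Rosi in WT cells, grouped by the size of that up-regulation (x axis), with the share of each group in percent (y axis) that was over 2-fold higher (red), within 2-fold or below the floor (grey) or over 2-fold lower (blue) in K36M cells. The red share is 27.7% in the first group and 63% in the last.

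**Figure D3:**
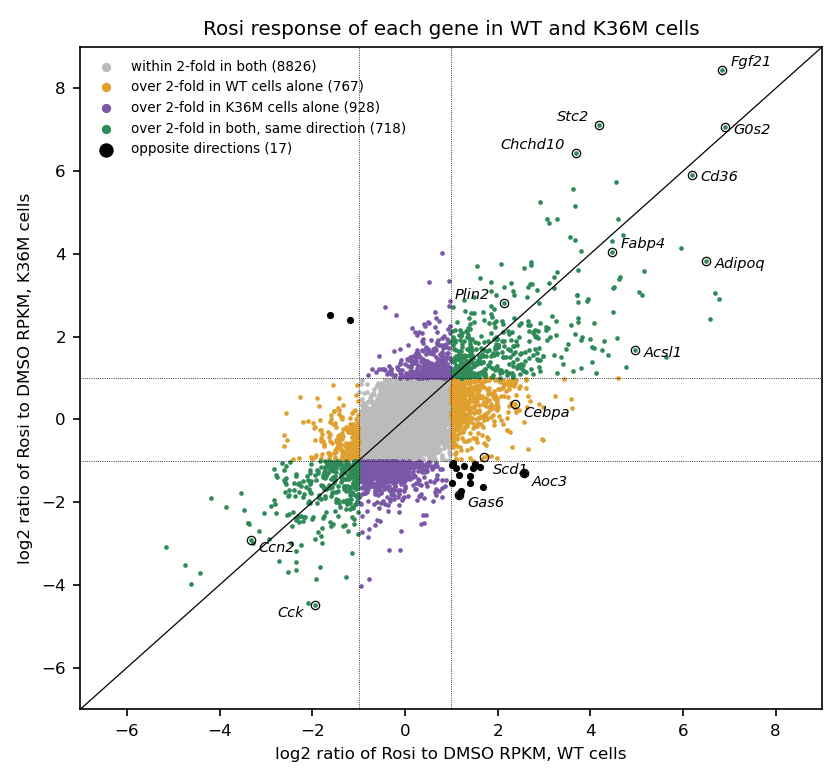
Log2 ratio of Rosi to DMSO RPKM in WT cells (x axis) and in K36M cells (y axis) for the 11256 genes kept in both pairs, 1 point per gene, with dotted lines at 2-fold, a solid line of equal response and genes at 0 in a library not drawn. *Adipoq* and *Acsl1* lie below the line, *Chchd10* and *Stc2* above it, *Cebpa* near 0 on the y axis, and *Aoc3* and *Gas6* in the quadrant of opposite directions.

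*Pparg* (NM_011146) was supplied by the vector in all 4 libraries, and the RefSeq counts do not separate this from the endogenous gene. *Pparg* stood at 71.8 RPKM in K36M cells without Rosi, at 42.6 after it, and at 60.2 and 56.8 in the WT pair. Its level was thus lower with Rosi in the mutant cells, the log2 ratio being -0.75 (95% counting interval -0.86 to -0.65, as for all intervals in parentheses below), and the part of this in other responses was not tested. Its partner *Rxra* had 16.6 and 8.34 RPKM in K36M cells, just short of a 2-fold difference, and 26.2 and 31.1 in WT cells. Among 18 adipogenic transcription factors kept in K36M cells, 3 rose over 2-fold (16.7%, against 7.90% of all genes kept) and none fell. Their median log2 ratio was 0.17. In WT cells 6 of 16 rose, with a median of 0.79. With a floor of 5 RPKM the K36M median was -0.12. The 3 that rose were *Klf15*, *Cebpb* and *Klf4*. *Klf15*, a metabolic regulator of fat and muscle, went from 0.0716 to 1.45 RPKM in K36M cells and from 0.241 to 3.06 in WT cells. *Cebpb*, an early factor of adipogenesis, went from 45.5 to 127 RPKM in K36M cells and from 51.9 to 108 in WT cells. The responses of these 2 genes were thus kept, whereas *Klf4* rose in K36M cells alone, from 7.67 to 17.7 RPKM against 23.6 and 16.8 in WT cells.

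*Cebpa* (NM_007678, chromosome 7 from 35904312 to 35906945 on mm9) did not reach the threshold in K36M cells, with 7.98 RPKM with DMSO and 10.3 with Rosi, while WT cells had 36.2 and 187. The K36M log2 ratio of 0.37 (0.17 to 0.57) differed from the WT ratio of 2.37 by -2.00 (-2.20 to -1.79). *Srebf1*, which drives lipogenic genes, had 32.7 and 25.1 RPKM in K36M cells against 29.8 and 95.2 in WT cells. *Nr1h3*, which encodes the sterol sensor LXRα, had 4.69 and 6.53 RPKM against 4.47 and 17.8. These 3 regulators were all over 2-fold higher with Rosi in WT cells and within 2-fold in K36M cells.

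The genes best known as direct PPAR targets gave a mixed picture of kept and lost responses. Of 41 members of this list kept in K36M cells, 23 were up-regulated over 2-fold (56.1%, against 7.90% of all genes kept) and none were down-regulated, with a median log2 ratio of 1.30. In WT cells 34 of 39 were up-regulated, with a median of 2.33. Of those 34 genes 21 were also up-regulated in K36M cells and 13 were not. The K36M ratio was smaller than the WT ratio beyond counting error for 26 of 38 genes with reads enough for the difference, and larger for 5. The list was compiled from genes known to respond to PPAR ligands and includes genes the study names for this experiment.

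Of 7 genes of fatty acid uptake and binding that rose in WT cells, 6 also rose in K36M cells. *Fabp4* (NM_024406), the adipocyte fatty acid binding protein, went from 69.4 to 1148 RPKM in K36M cells and from 112 to 2505 in WT cells, a log2 ratio of 4.05 (3.96 to 4.14) against 4.48. *Cd36*, a fatty acid transporter, went from 0.217 to 13.1 RPKM in K36M cells (18 and 564 reads) and from 1.15 to 83.7 in WT cells. Its log2 ratios of 5.91 and 6.19 differed by less than counting error (-1.02 to 0.47), although its level with Rosi was lower in K36M cells. *Angptl4*, a secreted inhibitor of lipoprotein lipase, went from 56.5 to 611 RPKM in K36M cells and from 42.7 to 400 in WT cells. *Vldlr*, a lipoprotein receptor, went from 1.46 to 14.3 RPKM against 0.553 to 4.78. The K36M ratio of *Angptl4* was larger than its WT ratio by 0.21 (0.12 to 0.30) on the log2 scale, and the difference for *Vldlr* was within counting error (-0.16 to 0.54). *Lpl*, lipoprotein lipase itself, went from 49.7 to 229 RPKM against 71 to 599. *Acsl1*, the main acyl-CoA synthetase of adipocytes, lost most of its response, with 2.61 and 8.28 RPKM in K36M cells against 4.66 and 146 in WT cells, a log2 ratio of 1.67 against 4.97. In the list of 15 genes for uptake and binding, 6 rose over 2-fold (40%, against 7.90% of all genes kept) and 1 fell. The median was 0.77 against 1.04 in WT cells. The gene that fell was *Cav1*, the coat protein of caveolae, with 69.8 and 27.6 RPKM in K36M cells and 93.9 and 151 in WT cells.

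Lipid droplet genes were also up-regulated, most of them to lower levels than in WT cells. Of 15 genes kept, 10 rose over 2-fold (66.7%, against 7.90% of all genes kept) and 1 fell in K36M cells. Some of the 10, such as *G0s2* and *Plin1*, were under 1 RPKM with DMSO. They passed the floor only with Rosi, so their direction was fixed by the filter. The median log2 ratio was 1.88, against 12 that rose and a median of 2.45 in WT cells. *G0s2*, an inhibitor of the lipase ATGL, went from 0.292 to 38.9 RPKM in K36M cells (6 and 415 reads) and from 1.53 to 182 in WT cells. *Plin1*, the perilipin of mature adipocytes, went from 0.684 to 12.1 RPKM against 2.37 to 148. *Cidec*, which enlarges lipid droplets, went from 2.12 to 25.7 RPKM against 3.78 to 136. All 3 thus rose over 2-fold in both kinds of cells and ended lower in K36M cells. *Plin2*, the perilipin found in most cell types, behaved differently, with 105 and 742 RPKM in K36M cells against 72.8 and 322 in WT cells, a log2 ratio of 2.82 (2.77 to 2.87) against 2.15. *Plin5*, the perilipin of oxidative tissues, went from 0.678 to 5.83 RPKM against 0.261 to 1.31. The lipases fell between, since *Pnpla2* (ATGL) went from 7.6 to 28.9 RPKM against 7.92 to 111, and *Lipe* (hormone-sensitive lipase) from 3.4 to 13.2 against 5.38 to 128. For both, the K36M ratio was below the WT ratio beyond counting error, with differences of -1.88 (-2.09 to -1.67) and -2.62 (-2.90 to -2.34) on the log2 scale. *Cideb*, the member that fell, had 2.2 and 1.08 RPKM and was within 2-fold with a pseudocount or with the median ratio set to 0.

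Triglyceride synthesis was split between enzymes. Of 17 genes kept, 5 rose over 2-fold (29.4%, against 7.90% of all genes kept) and 1 fell, with a median of 0.31. In WT cells 9 of 15 rose, with a median of 1.86. *Gpat3*, which catalyses the first acylation of glycerol 3-phosphate, went from 2.31 to 50.5 RPKM in K36M cells and from 1.79 to 46.9 in WT cells, a response of the same size within counting error (difference -0.26, from -0.62 to 0.10). *Agpat2*, *Lpin1* and *Dgat1*, of later steps, were within 2-fold in K36M cells. *Agpat2* had 17.1 and 23.1 RPKM against 16.8 and 109 in WT cells. *Lpin1* had 4.21 and 5.22 RPKM against 4.18 and 33.1. *Dgat1*, of the last step, had 11.3 and 21.9 RPKM against 13.5 and 83.3. Its log2 ratio of 0.96 (0.77 to 1.14) in K36M cells was just short of the threshold, against 2.62 in WT cells. With DMSO the levels of these 3 genes in WT and K36M cells were close to each other, and the difference lay in the libraries with Rosi. *Dgat2*, the other enzyme of the last step, passed the threshold, from 4.54 to 14.5 RPKM against 6.74 to 32.4. The member that fell, *Lpin3*, had 3.64 and 1.21 RPKM in K36M cells and 3.16 and 0.905 in WT cells.

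Genes of de novo lipogenesis more often fell than rose over 2-fold in K36M cells, though most were within 2-fold. Of 16 genes kept, 4 fell (25%) and 2 rose (12.5%) over 2-fold, with a median of -0.47. Over all genes kept the shares were 8.85% and 7.90%. In WT cells 3 of 15 rose and 1 fell, with a median of 0.39. The latter, *Elovl6*, fell in both, from 6.89 to 1.35 RPKM in K36M cells and from 7.38 to 2.72 in WT cells. *Fasn*, fatty acid synthase, had 62.7 and 20.6 RPKM in K36M cells and 57.6 and 57.7 in WT cells. *Scd2*, a fatty acid desaturase, had 98.5 and 20 RPKM against 91.6 and 120. *Scd1*, another desaturase, had 29.5 and 15.8 RPKM, a log2 ratio of -0.91, against 27.7 and 90.7. The first 2 fell over 2-fold in K36M cells and were within 2-fold in WT cells, while *Scd1* was over 2-fold higher in WT cells and lower without passing the threshold in K36M cells. *Scd1*, *Scd2* and *Scd3* are close paralogs whose reads may be shared. *Elovl3*, a fatty acid elongase of brown fat, went the other way and rose from 0.109 to 3.74 RPKM (5 and 89 reads, a log2 ratio of 5.10 from 3.82 to 6.76) against 0.0979 and 0.257 in WT cells.

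Of 27 mitochondrial oxidation genes kept, 8 rose over 2-fold in K36M cells (29.6%, against 7.90% of all genes kept) and none fell. The median was 0.55, against 15 of 26 that rose and a median of 1.03 in WT cells. *Acot2*, a mitochondrial acyl-CoA thioesterase, went from 5 to 69.5 RPKM in K36M cells and from 4.18 to 27.4 in WT cells. *Cpt1b*, which admits long-chain fatty acids to mitochondria, went from 1.09 to 7.15 RPKM against 1.22 to 2.51. For *Acot2* and *Cpt1b* the K36M ratio was larger than the WT ratio beyond counting error, by 1.08 (0.80 to 1.37) and 1.68 (1.12 to 2.23). The acyl-CoA dehydrogenases *Acadl* and *Acadm*, of the oxidation cycle, had 22.3 and 55 RPKM against 19.8 and 45.3, and 14.8 and 15.8 against 11.5 and 28.3. *Cpt1a*, another form of the entry enzyme, had 21.9 and 26.1 RPKM against 17.4 and 37.1. Of these 3, *Acadl* passed the threshold in K36M cells and all 3 did in WT cells.

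Of 34 peroxisomal genes kept, 6 rose and 1 fell over 2-fold (17.6% up, against 7.90% of all genes kept, median 0.31), and in WT cells 17 of 35 rose (48.6%, median 0.97). All 6 were among the 17, a share equal to the 35.3% over all genes up-regulated in WT cells. They included *Ehhadh*, *Pex11a* and *Ech1*. *Pex11a*, which promotes peroxisome division, went from 4.76 to 15.3 RPKM in K36M cells and from 3.82 to 18.4 in WT cells. *Cat*, catalase, had 20.9 and 24 RPKM against 20.8 and 55.3. The K36M ratio was smaller than the WT ratio beyond counting error for 22 of the 34 genes and larger for 1. In the respiratory chain 3 of 51 genes rose and none fell over 2-fold in K36M cells (5.88%, near the 7.90% of all genes kept, median 0.19), and 0 of 50 were called in WT cells (median 0.24). The 3 were *Uqcrq* (98.5 and 321 RPKM against 100 and 141 in WT cells), *Ndufa1* and *Ndufa6*. The median transcript of this list had 758 bases, in the length range where ratios were higher in K36M cells, and *Ndufa6* was within 2-fold when ratios were centred within length classes.

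Several defining brown fat genes were low, and the higher sum of the list with Rosi in K36M cells rested on a single member. The list summed to 116 RPKM with DMSO and 322 with Rosi in K36M cells, against 125 and 159 in WT cells. Its member *Fgf21* went from 0.607 to 212 RPKM in K36M cells, most of the sum with Rosi, and from 0.194 to 22.3 in WT cells. *Ucp1*, the uncoupling protein of thermogenesis, had 0 reads in each of the 4 libraries, which allows up to 3 reads. Of 15 genes of this list kept in K36M cells, 5 rose (33.3%) and 2 fell (13.3%) over 2-fold, with a median of 0.21. Over all genes kept the shares were 7.90% and 8.85%. In WT cells 6 of 12 rose, with a median of 0.89. *Adrb3*, the main adrenergic receptor of fat, had 0.573 and 0.593 RPKM in K36M cells, under the floor, against 0.197 and 6.7 in WT cells. *Ppargc1b*, a coactivator of oxidative genes, rose from 0.662 to 1.73 RPKM against 0.39 to 6.43. *Kcnk3*, a potassium channel of brown fat, rose from 3.18 to 7.19 RPKM against 1.77 to 21.9. The last 2 were thus kept past the threshold with ratios smaller than in WT cells beyond counting error (differences of -2.66, from -3.38 to -1.94, and -2.45, from -2.78 to -2.11), though with a pseudocount of 1 they were within 2-fold.

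Mature adipocyte markers summed to 78.2 RPKM with DMSO and 1210 with Rosi in K36M cells, of which *Fabp4* had 69.4 and 1148. Of 12 markers 6 were kept in K36M cells and all 6 rose over 2-fold, with a median of 3.71. Markers such as *Adipoq*, under 1 RPKM with DMSO, passed the floor only with Rosi, so their rise was fixed by the filter. Markers not kept, such as *Retn*, are outside this count. All 6 kept had smaller ratios than in WT cells beyond counting error. *Adipoq*, adiponectin, went from 0.4 to 5.64 RPKM in K36M cells (12 and 88 reads) and from 1.46 to 132 in WT cells. *Car3*, a carbonic anhydrase, went from 1.72 to 4.13 RPKM against 2.32 to 63.1, and was within 2-fold in K36M cells with a pseudocount of 1. *Retn*, resistin, stayed under the floor in K36M cells with 0.0705 and 0.543 RPKM and reached 6.85 in WT cells. Of 15 adipokines and secreted proteins kept, 9 rose over 2-fold (60%, against 7.90% of all genes kept) and 2 fell. The median was 1.17 against 1.70 in WT cells. *Mest*, which follows fat expansion, went from 2.1 to 17.8 RPKM against 0.462 to 15.2, and ended at a like level in both. *Agt*, angiotensinogen, went from 1.18 to 4.94 RPKM against 17.9 to 227, and *Hp*, haptoglobin, from 0.488 to 1.23 against 6.22 to 65.8. The latter 2 were lower in K36M cells already with DMSO.

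Genes of insulin signalling and glucose use more often fell than rose in K36M cells. Of 27 genes kept, 4 rose (14.8%) and 7 fell (25.9%) over 2-fold, with a median of -0.49. Over all genes kept the shares were 7.90% and 8.85%. In WT cells 9 of 28 rose and 5 fell, with a median of 0.28. *Irs2*, an insulin receptor substrate, rose from 3.11 to 10.7 RPKM in K36M cells and from 6.82 to 34.3 in WT cells. *Pcx*, pyruvate carboxylase, rose from 18 to 59.7 RPKM against 26.4 to 197. *Slc2a4*, the insulin-dependent glucose transporter, had 0.189 and 0.196 RPKM, both under the floor, against 0.0815 and 1.22. The response was thus present for the first 2 and within 2-fold for *Slc2a4*. Of the genes that fell, *Tbc1d4*, which acts on transporter traffic, had 1.03 and 0.309 RPKM in K36M cells against 1.54 and 3.57 in WT cells, a fall that was within 2-fold with a pseudocount of 1. *Ldha*, lactate dehydrogenase A, fell in both, from 327 to 90.2 RPKM and from 387 to 118. *Slc16a3*, a lactate exporter, also fell in both, from 52 to 12.1 RPKM and from 24.9 to 3.34.

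**Figure D4:**
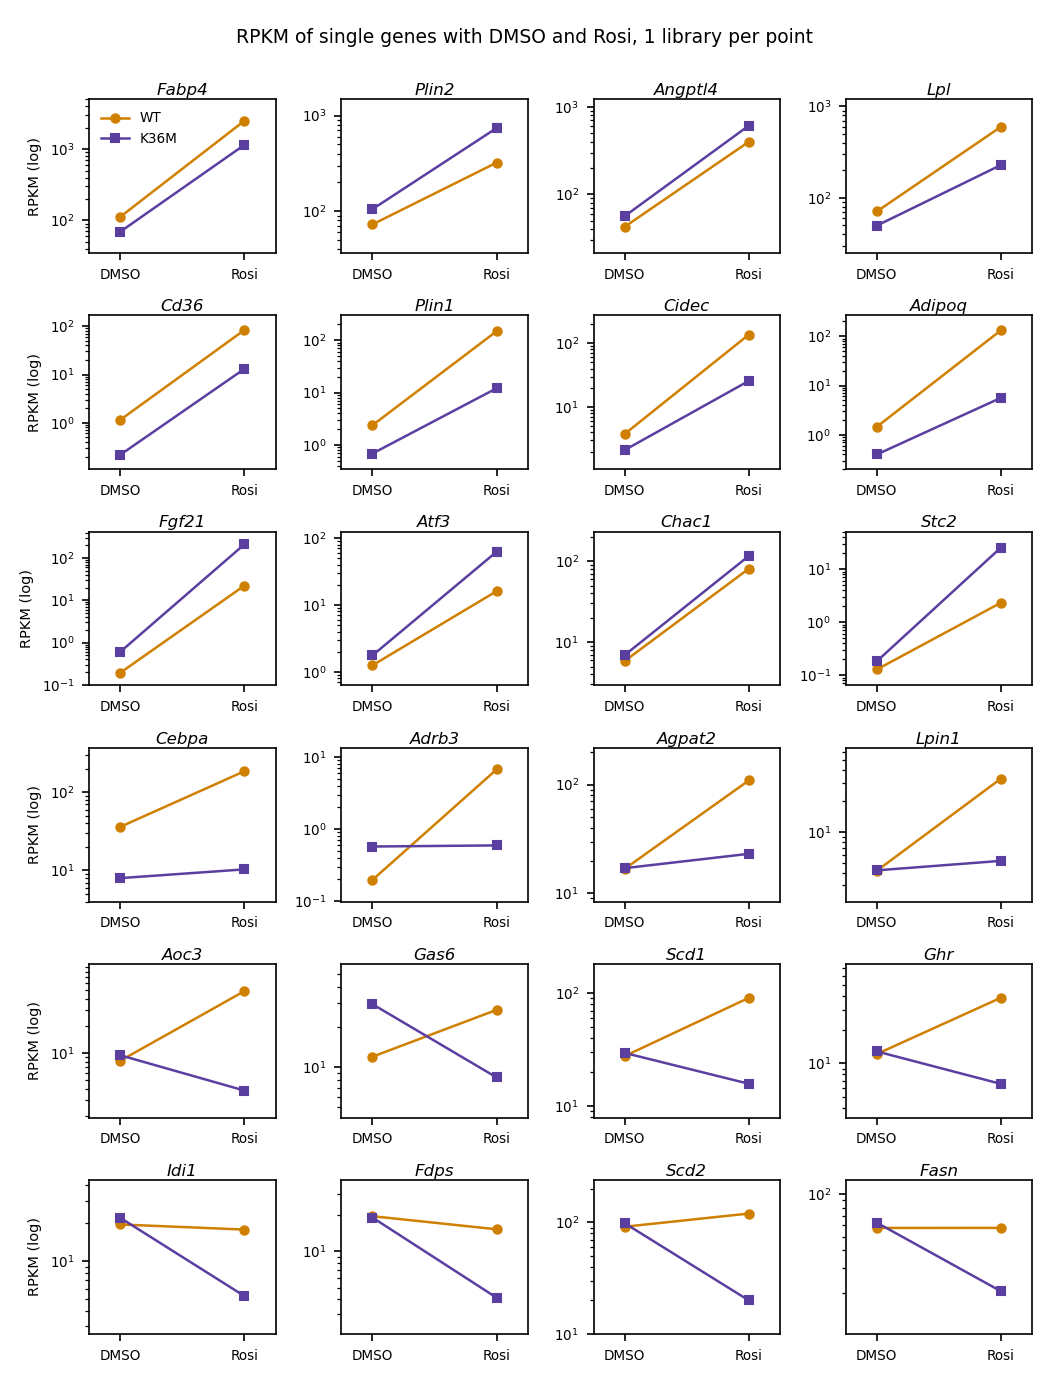
RPKM under DMSO and under Rosi in WT cells (orange circles) and K36M cells (purple squares) for 24 genes, 1 library per point, on a log axis with its own range in each panel. The first rows hold genes over 2-fold higher in both kinds of cells (*Fabp4*, *Cd36*). Their ratios were smaller in K36M cells for some (*Adipoq*, *Cidec*) and larger for others (*Plin2*, *Angptl4*). Below them are responses at least as large in K36M cells (*Fgf21*, *Atf3*) and responses within 2-fold in K36M cells (*Cebpa*, *Lpin1*). The last rows hold genes higher with Rosi in WT cells and lower in K36M cells (*Aoc3*, *Gas6*, *Scd1*, *Ghr*) and sterol and fatty acid genes that fell in K36M cells (*Idi1*, *Fasn*).

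A small set of genes was called in opposite directions. Of the 1171 genes up-regulated in WT cells, 19 fell over 2-fold in K36M cells, where 8.85% of all genes kept fell. Of the 594 genes down-regulated in WT cells, 3 rose over 2-fold in K36M cells, where 7.90% of all genes kept rose. Opposite calls were thus rarer than these shares. With at least 5 RPKM in either library of each pair, 7 genes were called in opposite directions, of which 1 row has no symbol and 1 is a small nucleolar RNA. *Aoc3* (NM_009675, chromosome 11 from 101191919 to 101203252 on mm9), an amine oxidase on the surface of adipocytes, went from 9.49 to 3.86 RPKM in K36M cells and from 8.26 to 48.8 in WT cells. Its log2 ratio was -1.30 (-1.52 to -1.08) in K36M cells and 2.56 (2.45 to 2.67) in WT cells. *Gas6* (chromosome 8 from 13465374 to 13494535), a ligand of TAM receptor kinases, had 29.5 and 8.38 RPKM against 12 and 26.8. *Angpt4*, an angiopoietin, had 7.38 and 2.53 RPKM against 3.07 and 8.1. *Adam12*, a metalloprotease of early fat cells, had 8.64 and 4.12 RPKM against 7.06 and 20.1. *Tlcd1*, a membrane lipid regulator, had 5.57 and 2.46 RPKM against 4.26 and 9.19. For these 5 genes the libraries with Rosi stood on opposite sides of their DMSO libraries. The K36M fall of *Adam12* was within 2-fold with a pseudocount of 1 or with ratios centred within length classes, and that of *Tlcd1* with a pseudocount of 1. *Ghr*, the growth hormone receptor, had 12.8 and 6.58 RPKM against 12.1 and 38.4, with nearly the same level in both DMSO libraries.

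The largest ratios in K36M cells included a secreted hormone and several growth arrest and stress genes. *Fgf21* (NM_020013, chromosome 7 from 52869277 to 52870860 on mm9), a secreted metabolic hormone with both PPAR and ATF4 inputs, went from 0.607 to 212 RPKM (14 and 2536 reads) in K36M cells and from 0.194 to 22.3 in WT cells. This log2 ratio of 8.45 (7.70 to 9.32) was the highest among genes with at least 5 RPKM in either K36M library, and its difference from the WT ratio, 1.60, was within counting error (-0.01 to 3.21). *Klb*, which encodes the coreceptor of FGF21, did not follow, with 0.119 and 0.23 RPKM in K36M cells against 0.147 and 5.26 in WT cells. *Stc2*, a secreted stanniocalcin, went from 0.183 to 25.5 RPKM against 0.128 to 2.33. *Chchd10*, a mitochondrial intermembrane protein, went from 1.08 to 93.7 RPKM against 0.679 to 8.74. *Gadd45a*, a growth arrest gene, went from 3.99 to 189 RPKM against 5.11 to 63. The ratios of *Stc2*, *Chchd10* and *Gadd45a* were larger than in WT cells beyond counting error, by 2.94 (1.29 to 4.59), 2.75 (1.77 to 3.73) and 1.94 (1.57 to 2.31) on the log2 scale. E230016M11Rik overlaps *Gadd45a* on the other strand, and without strand their reads cannot be told apart.

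These genes stand beside a list of amino acid and unfolded protein stress genes, many of them targets of ATF4 and CHOP. Of its 25 genes, all kept, 18 rose and none fell over 2-fold in K36M cells (72%, against 7.90% of all genes kept), with a median of 1.71. In WT cells 14 rose, all of them among the 18, and the median was 1.11. For 21 of the 25 genes the K36M ratio was larger beyond counting error and for 1 it was smaller. *Atf3*, a stress-induced factor, went from 1.77 to 62.5 RPKM in K36M cells and from 1.26 to 16.1 in WT cells. *Chac1*, which degrades glutathione, went from 6.91 to 116 RPKM against 5.83 to 80.6. *Slc7a11*, the cystine importer, went from 0.907 to 12 RPKM against 0.817 to 5.37. *Ppp1r15a*, a phosphatase subunit that reverses the block of translation, went from 9.96 to 84.9 RPKM against 8.95 to 32.6. The serine and one-carbon enzymes *Psph*, *Shmt2* and *Phgdh* rose too, with *Phgdh* at 49.6 and 132 RPKM against 49.7 and 57.6. *Ddit3* (CHOP), listed among preadipocyte genes, had 36 and 196 RPKM against 23.8 and 121. *Trib3*, an inhibitor of AKT, had 8.66 and 106 RPKM against 5.54 and 73.7. For these last 2 the difference between K36M and WT ratios was within counting error. Genes of protein folding were mixed. *Calr* (431 and 218 RPKM against 460 and 232), *Hsp90b1* (364 and 279 against 352 and 219) and *Pdia4* (70.6 and 47.1 against 95.4 and 87.1) were lower with Rosi in both, within 2-fold. *Hspa5* was higher in K36M cells (288 and 404 RPKM) and lower in WT cells (314 and 219), also within 2-fold. *Dnajb9* rose over 2-fold in both, from 4.38 to 14.3 RPKM against 3.67 to 9.43.

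Several of these genes share a short element near their start. The C/EBP-ATF element TTGCATCA, searched on both strands (so also as TGATGCAA), was chosen after the responses were seen. It occurs in 0.895% of 32851 RefSeq promoter windows on GRCm38.p6, each from 250 bases before to 50 bases after a start, and in 67 of the 9106 genes kept that have a window (0.736%). It was found in 21 of 692 genes up-regulated in K36M cells (3.03%), in 3 of 749 down-regulated genes (0.401%) and in 12 of 312 genes up-regulated in both kinds of cells (3.85%). Of genes up-regulated in WT cells alone it was found in 4 of 541 (0.739%), and of those up-regulated in K36M cells alone in 9 of 380 (2.37%). The looser letters TGATGNAA gave shares of 7.08%, 2.4% and 3.51% for genes up-regulated in K36M cells, down-regulated there and up-regulated in WT cells alone, against 2.68% of all genes kept and 3.97% of all windows. A match is a description of the letters and was not tested as a site. The stretches below lie wholly before the start, are written on the strand of the gene and have the element in capitals. They show it in 6 of the 21 up-regulated genes that hold it, picked for holding it, so they do not show how common it is among strongly raised genes. Of the 30 genes with the highest or lowest log2 ratio, 20 have a window and 4 of these hold it (*Fgf21*, *Chchd10*, *Atf3* and *Avil*). *Nupr1*, a stress-induced chromatin protein (26.7 and 285 RPKM in K36M cells against 31.4 and 96.1 in WT cells), was included after its values were seen.
Fgf21 (chr7:45615602-45615649, minus strand, from 139 to 132 bases before the start): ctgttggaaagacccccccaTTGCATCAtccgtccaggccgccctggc
Chchd10 (chr10:75933025-75933085, plus strand, 2 copies between 85 and 65 bases before the start): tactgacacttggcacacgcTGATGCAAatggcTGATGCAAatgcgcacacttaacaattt
Atf3 (chr1:191183416-191183463, minus strand, from 110 to 103 bases before the start): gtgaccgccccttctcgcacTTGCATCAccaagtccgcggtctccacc
Chac1 (chr2:119351029-119351076, plus strand, from 193 to 186 bases before the start): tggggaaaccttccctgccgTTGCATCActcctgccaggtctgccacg
Slc7a11 (chr3:50443633-50443699, minus strand, 2 copies in opposite orientation between 66 and 40 bases before the start): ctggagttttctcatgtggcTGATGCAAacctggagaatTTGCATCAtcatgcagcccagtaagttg
Nupr1 (chr7:126625553-126625600, minus strand, from 110 to 103 bases before the start): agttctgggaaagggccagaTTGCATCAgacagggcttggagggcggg

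The PPAR element was looked for in the same windows, as the letters AGGTCANAGGTCA on both strands. It occurs in 13 of 32851 windows (0.0396%), in 0 of 692 genes up-regulated in K36M cells and in 0 of 853 up-regulated in WT cells. With the looser letters AGGNCANAGGNCA it occurs in 0.381% of windows, in 2 of 692 genes up-regulated in K36M cells and in 4 of 853 up-regulated in WT cells. None of 36 genes of the PPAR target list with a window held either form. These windows reach 250 bases before the start, and no match says only that the letters are not within them.

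Some genes were called in K36M cells alone. Of the 938 up-regulated genes, 525 were not up-regulated in WT cells and 143 had a WT log2 ratio of at most 0.32. Among these 143 with at least 5 RPKM, the highest log2 ratio was that of *H2-Q6*, a class I histocompatibility gene, with 3.85 and 25.1 RPKM in K36M cells against 1.08 and 0.801 in WT cells. It has many close paralogs, as has *Serpinb9g*, a protease inhibitor, with 4.93 and 22.7 RPKM against 2.08 and 2.33. *Snhg1*, the host gene of several small nucleolar RNAs, had 42.2 and 184 RPKM against 55.6 and 68.6. *Nop14*, a ribosome biogenesis factor, had 21.7 and 69.5 RPKM against 19.7 and 23.7. *Erfe*, the hormone erythroferrone, had 1.92 and 7.21 RPKM against 0.425 and 0.408. *Agap1*, a regulator of Arf proteins, had 3.45 and 12 RPKM against 3.7 and 3.85. In each of these the WT libraries with DMSO and Rosi were close, or that with Rosi was lower. *B4galnt2* (0.291 and 10 RPKM against 0.113 and 0.163), *Avil* (0.203 and 11.6 against 0.121 and 0.478) and *Akr1b7* (0.0658 and 8.23 against 0.0368 and 0.145) were under 1 RPKM in all libraries but that of K36M cells with Rosi. The WT log2 ratio of *Avil*, on these low levels, was 1.98 (0.78 to 3.34).

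Interferon-stimulated genes rose in both kinds of cells. Of 30 kept in K36M cells 19 rose and none fell over 2-fold (63.3%, against 7.90% of all genes kept, median 1.44). In WT cells 30 of 31 rose (96.8%, median 2.46). All 19 were among the 30. The K36M ratio was smaller beyond counting error for 27 of 30 genes and larger for 1. *Isg15*, a ubiquitin-like protein, went from 31.3 to 125 RPKM in K36M cells and from 20.1 to 111 in WT cells. *Ifit3* and *Ifit1*, which bind viral RNA or its sensors, went from 5.3 to 17.3 and from 12.3 to 37.1 RPKM, against 5.32 to 59 and 9.85 to 70.9. *Cxcl10*, a chemokine, went from 20.2 to 97.8 RPKM against 14.3 to 93. *Isg15* and *Cxcl10* thus ended at like levels in both kinds of cells, and *Ifit1* and *Ifit3* lower in K36M cells. *Irf1*, a transcription factor of the pathway, had 9.6 and 10.6 RPKM against 9.96 and 20.4.

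The interferon element GAAANNGAAA, searched on both strands and chosen after the responses were seen, occurs in 3.44% of all windows. It was found in 13 of 25 genes of the interferon list with a window (52%), in 46 of 692 genes up-regulated in K36M cells (6.65%), in 21 of 749 down-regulated (2.8%) and in 67 of 853 up-regulated in WT cells (7.85%). The 3 stretches below are shown because these genes rose in both kinds of cells, with the element in capitals and overlapping copies run together.
Isg15 (chr4:156200855-156200916, minus strand, 3 overlapping copies between 78 and 57 bases before the start): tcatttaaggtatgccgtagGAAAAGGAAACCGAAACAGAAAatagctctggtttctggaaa
Ifit1 (chr19:34640765-34640833, plus strand, 2 copies between 104 and 76 bases before the start): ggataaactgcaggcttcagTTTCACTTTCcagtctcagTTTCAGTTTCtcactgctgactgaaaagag
Ifit3 (chr19:34583353-34583436, plus strand, 2 copies between 156 and 113 bases before the start): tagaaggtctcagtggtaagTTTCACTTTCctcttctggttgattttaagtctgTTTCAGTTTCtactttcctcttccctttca

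Cholesterol synthesis and uptake fell in K36M cells and was nearly level in WT cells. Of 28 genes kept, 15 fell and 2 rose over 2-fold in K36M cells (median -1.07, against a background of 8.85% down-regulated), and 0 of 27 fell and 3 rose in WT cells (median 0.00). The K36M ratio was below the WT ratio beyond counting error for 25 of 27 genes. *Fdps*, farnesyl diphosphate synthase, had 19.2 and 4.12 RPKM in K36M cells against 19.6 and 15.3 in WT cells, a log2 ratio of -2.22 (-2.61 to -1.84). *Idi1*, of the step before, had 22 and 5.23 RPKM against 19.5 and 17.7. *Srebf2*, the factor that drives this pathway, had 41.4 and 15.3 RPKM against 42.4 and 36.4. In all 3 the DMSO libraries of WT and K36M cells were close and the library of K36M cells with Rosi was the low one. *Insig1*, which retains SREBP in the endoplasmic reticulum, had 13 and 9.63 RPKM against 11.8 and 40.3. The 2 that rose were *Abca1*, a cholesterol exporter and LXR target (1.15 and 3.9 RPKM against 1.62 and 26.5), and *Apoe*, apolipoprotein E (2.69 and 10.4 against 1.69 and 3.19). The sterol element TCACNCCAC, chosen after the responses were seen and searched on both strands, occurs in 1.24% of the promoter windows and in 0 of 18 genes of this list with a window.

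Contractile and matrix genes were among those that fell. Of 36 matrix and contractile genes kept, 17 fell over 2-fold in K36M cells (47.2%, against 8.85% of all genes kept) and 1 rose (median -0.89). In WT cells 12 fell and 3 rose (median -0.64), and 10 fell in both. *Ccn2*, a growth factor of fibroblasts, had 72.8 and 9.73 RPKM in K36M cells and 199 and 19.8 in WT cells. *Acta2*, smooth muscle actin, had 955 and 276 RPKM against 1372 and 306. *Tagln*, transgelin, had 467 and 181 RPKM against 367 and 72.3. These contractile genes were thus lowered in both. Collagen VI genes differed, with *Col6a3* at 132 and 45.8 RPKM in K36M cells against 182 and 252, and *Col6a1* at 171 and 215 against 238 and 612. *Col15a1*, a basement membrane collagen, was the member that rose, from 1.35 to 6.85 RPKM against 3.24 to 54.9. Beta-actin (*Actb*), often used as a reference gene, also fell, from 1931 to 946 RPKM in K36M cells and from 2223 to 844 in WT cells.

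Of 23 preadipocyte and progenitor markers kept, 11 fell over 2-fold in K36M cells (47.8%, against 8.85% of all genes kept) and 1 rose (median -0.92). In WT cells 5 of 23 fell and 2 rose (median -0.57). *Pdgfra*, a receptor of adipose progenitors, had 6.01 and 2.59 RPKM in K36M cells against 7.3 and 6.42. *Id2*, an inhibitor of differentiation, had 23.9 and 7.76 RPKM against 25.6 and 13.5. *Dlk1*, the classical preadipocyte marker, had 10.2 and 5.39 RPKM against 9.55 and 4.5. *Pdgfra* and *Id2* passed the threshold in K36M cells alone (*Pdgfra* not with a pseudocount of 1), and *Dlk1* in WT cells alone. Of 12 mesenchymal markers 6 fell over 2-fold (50%, against 8.85% of all genes kept) and none rose (median -0.90), against 2 in WT cells (median -0.39). *Vim*, vimentin, was the most abundant with 1859 and 773 RPKM against 2605 and 1010.

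Mitotic genes were among those that fell in K36M cells. Of 36 cell cycle genes, all kept, 11 fell over 2-fold in K36M cells (30.6%, against 8.85% of all genes kept) and none rose (median -0.59). In WT cells 2 fell (median -0.46). *Ccnd1*, cyclin D1, fell in both, from 46.2 to 9.61 RPKM in K36M cells and from 23.7 to 2.9 in WT cells. *Mki67*, a marker of proliferation, had 30.2 and 11.5 RPKM in K36M cells against 31 and 27.2. *Plk1*, a mitotic kinase, had 33.4 and 13.3 RPKM against 39.2 and 19.9. The replication helicase *Mcm2* had 65.1 and 111 RPKM against 83.4 and 77.2. Beside *Ccnd1* and *Ccnd3*, a D-type cyclin, the genes that fell in K36M cells were *Mki67* and 8 mitotic genes, and the 6 MCM genes of the list had log2 ratios from -0.05 to 0.77. Of 22 inhibitors of the cell cycle and p53 targets kept, 4 rose over 2-fold in K36M cells (18.2%, against 7.90% of all genes kept) and 1 fell (median -0.09). All 4 also rose in WT cells, where 5 of 22 did (median 0.42). *Cdkn1c*, the inhibitor p57, went from 7.31 to 36.3 RPKM against 7.58 to 32.9, and *Cdkn1a*, p21, had 185 and 140 RPKM against 149 and 157.

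The lowest ratios among genes with at least 5 RPKM in either K36M library included secreted and receptor genes. *Cck*, the peptide cholecystokinin, had 28.2 and 1.27 RPKM in K36M cells against 6.1 and 1.59 in WT cells, a log2 ratio of -4.48 (-5.49 to -3.63). *Cxcl5*, a neutrophil chemokine, had 5.48 and 0.334 RPKM against 3.17 and 1.64. *Adcyap1r1*, the receptor of the peptide PACAP, had 28.9 and 2.44 RPKM against 4.72 and 1.32. The falls of *Cck* and *Adcyap1r1* were over 2-fold in both kinds of cells and that of *Cxcl5* in K36M cells alone. Of 17 chemokines, cytokines and NF-kB targets kept, 6 fell over 2-fold (35.3%, against 8.85% of all genes kept) and 1 rose (median -0.36, against 0.04 in WT cells). The 1 that rose was *Saa3*, a serum amyloid A gene with close paralogs, from 2.24 to 59.8 RPKM against 5.2 to 44.9.

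Of 24 genes of H3.3 and of H3K36 or H3K27 methylation kept, 2 rose and none fell over 2-fold in K36M cells (8.33%, near the 7.90% of all genes kept, median 0.11 against 0.41 in WT cells). *H3f3b*, which encodes H3.3, had 168 and 440 RPKM in K36M cells against 183 and 235 in WT cells, and *Kdm6b*, an H3K27 demethylase, had 10.5 and 22.2 RPKM against 8.1 and 20.4. *Nsd2*, an H3K36 methyltransferase, had 18.4 and 17.5 RPKM against 16.8 and 16.7. The RefSeq counts do not separate the vector's H3.3 from the endogenous genes, so the K36M label could not be checked from these values.

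Markers of other cell types were mostly under the floor. Of 14 macrophage markers with a row, 2 were kept in K36M cells (*Csf1r* with 2.95 and 0.571 RPKM, and *Cd14* with 1.67 and 0.686), both over 2-fold lower with Rosi (*Cd14* not with a pseudocount of 1). The list summed to 5.48 RPKM with DMSO and 2.15 with Rosi in K36M cells and to 4.09 and 1.92 in WT cells, and 3 of its genes were at 0 with Rosi in K36M cells. Of 12 endothelial markers 2 were kept, *Eng* with 34.2 and 11.8 RPKM and *Egfl7* with 7.4 and 7.8, and the list summed to 42.7 and 20.9 RPKM against 16.6 and 13.5 in WT cells. Of 18 skeletal muscle markers 4 were kept, of which 2 fell, with *Acta1* at 67.5 and 62.8 RPKM and a sum of 82.1 and 74.7 RPKM against 38.5 and 31.9. Mesenchymal markers, of the lineage the label names, summed to 5019 and 2648 RPKM against 5790 and 3647. The part of these other cell types in the responses was not tested.

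**Figure D5:**
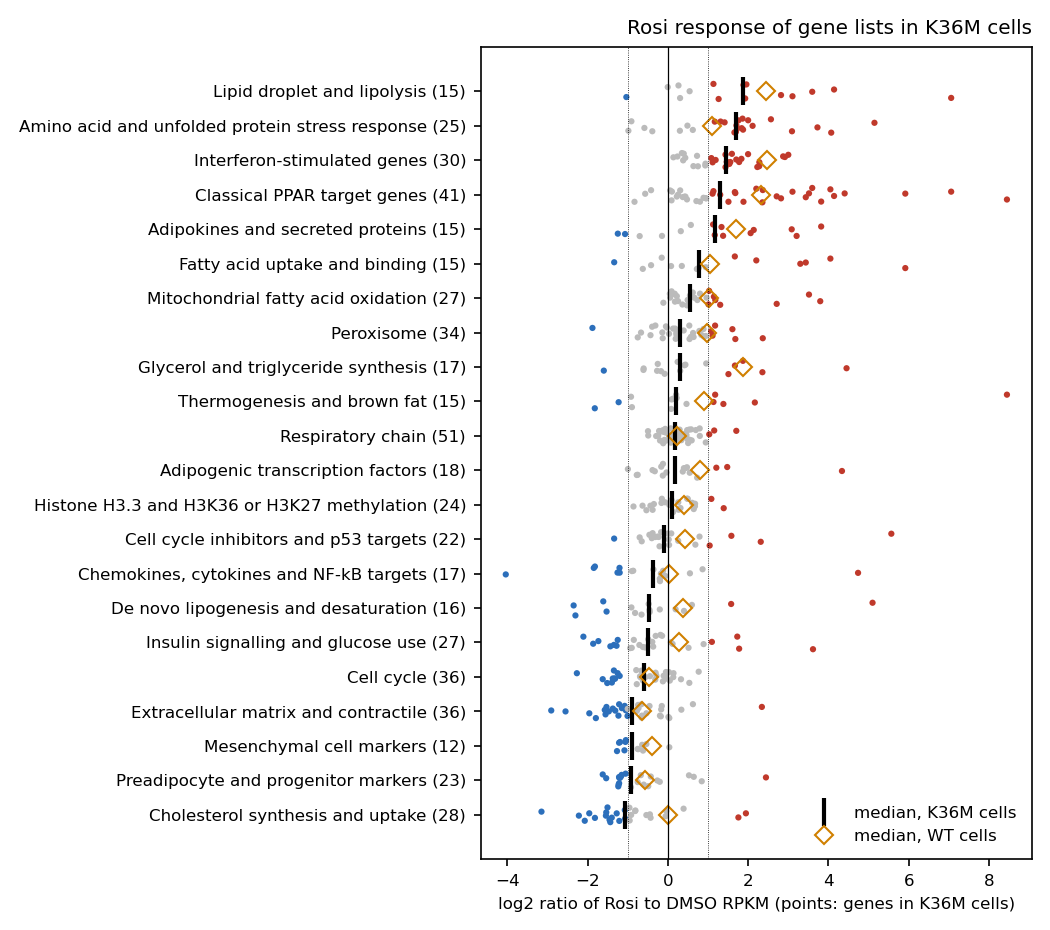
Log2 ratio of Rosi to DMSO RPKM in K36M cells (x axis) for the genes of 22 lists (y axis, number of genes kept in parentheses), 1 point per gene, red when over 2-fold higher and blue when over 2-fold lower. Black bars are list medians in K36M cells and orange diamonds those in WT cells. The stress list has its K36M median of 1.71 above the WT median of 1.11, and the cholesterol list has -1.07 against 0.00.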

How the data were processed

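RNA from K36M and WT cells with ectopic PPARγ was sequenced as polyA-selected libraries on a HiSeq, with 1 library for each of DMSO and Rosi. The deposited values are RPKM per RefSeq transcript on mm9, which the authors made from mapped reads, and the mapper and counter are not given in the sources used here (the submitters' processing notes name CASAVA 1.8.2 and SICER without a role). RPKM values of 26945 of 26946 transcripts above 0 in at least 2 libraries were whole multiples of a step set by length and depth, so reads per transcript were recovered from them. The files hold 14 RNA-Seq libraries, of which 4 were compared here.

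Symbols came from a RefSeq table of GRCm38.p6, which matched 28436 of 29082 transcripts, and 3760 genes had several. Ratios of Rosi to DMSO RPKM were taken without a pseudocount, and a gene was called when over 2-fold. With 1 library per condition there is no replicate error, so counting intervals (95%, Clopper-Pearson, on the recovered reads) and differences of log2 ratios between the K36M and WT pairs with their counting error are given in place of tests. Without molecular identifiers, reads are not independent molecules. Where 0 reads were found, 3 reads were taken as the limit. The recovery of reads and ratios was tested on simulated data.

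Members and gene lists were chosen with earlier results of these data known, and 677 of 680 list entries matched. Genes named are, per list, up to 6 called members with the largest ratio in each direction and those with the highest RPKM, the 15 highest and 15 lowest ratios with at least 5 RPKM, the 15 highest and 15 lowest K36M ratios among genes raised in WT cells, the 10 highest in K36M cells alone, the genes called in opposite directions, and those the study names for this experiment. Other genes named (*Nupr1*, *Klb*, *Actb*, *Gapdh*, and list members that were not called or not among those 6, such as *Rxra*, *Nr1h3*, *Agpat2*, *Lpin1*, *Dgat1*, *Insig1*, *Cat*, *Irf1*, *Ifit1* and *Dlk1*) were chosen after their values were seen. Promoter windows and sequences are from RefSeq, GRCm38.p6. Gene coordinates are on mm9. Alternatives were pseudocounts of 0.1 and 1, floors above 0 and of 5 RPKM, the median ratio set to 0, transcripts summed per gene, a counting interval excluding 1, thresholds of 1.5 and 3-fold, and 2 chosen after seeing the data (ratios centred within length classes, small RNA genes left out). Python 3.11.15, numpy 2.4.6, pandas 2.3.3, scipy 1.17.1 and matplotlib 3.10.9 were used. Some genes that these rules name are not reported here.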

Additional observations from a re-analysis of the deposited data

Results flagged for a closer look

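For 6 genes with a symbol and at least 5 RPKM in either library of each pair, the K36M and WT pairs were called in opposite directions, and the difference itself was not tested, since each condition has 1 library. The K36M log2 ratio minus the WT log2 ratio was -3.86 for *Aoc3*, -2.98 for *Gas6*, -2.95 for *Angpt4*, -2.58 for *Adam12* and -2.28 for *Tlcd1*, all higher with Rosi in WT cells and lower in K36M cells. For *Snord99*, a small nucleolar RNA gene, it was 3.59, with 2.93 and 15.5 RPKM in K36M cells and 9.85 and 4.32 in WT cells, from 4 to 12 reads in each library. Counting intervals of all 6 differences leave out 0, and they cover counting error only.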

How the results depend on the processing

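The counts of genes up-regulated in K36M cells, down-regulated there, up-regulated in both and down-regulated in both (938, 1051, 413 and 314 as reported) became 599, 667, 259 and 179 with a pseudocount of 1, and 3919, 3208, 1198 and 946 with every gene above 0 RPKM. They became 546, 620, 243 and 180 with a floor of 5 RPKM, 1953, 2329, 988 and 849 over 1.5-fold, and 417, 363, 167 and 94 over 3-fold, where fewer or more genes can pass by construction. Under the other settings run they stayed within 1.5 times. The share of WT up-regulated genes that were also up-regulated in K36M cells ranged from 31.2% to 42%. The share of K36M calls that were higher was 47.2% as reported and 55% with every gene above 0 RPKM. The median of the adipogenic factors became -0.12 with a floor of 5 RPKM, that of endothelial markers 0.13 with every gene above 0, and that of skeletal muscle markers 0.22 with a floor of 5 RPKM, and the cause was not tested. Of 183 called genes named by rule, 24 were no longer over 2-fold with a pseudocount of 1, 2 with 0.1, 5 with ratios centred within length classes and 1 with the median set to 0, and none changed direction. No paired analysis was possible because each condition has 1 library. Depth limits genes near the floor most, where a few reads set the ratio.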
